A study of Mus musculus with 8 samples.

Results

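The genes described here are 10 components of bone morphogenetic protein (BMP) signaling, the ligands *Bmp2*, *Bmp4* and *Bmp7*, the receptors *Bmpr1a*, *Acvr1* and *Bmpr2*, the decoy receptor *Bambi*, and the secreted antagonists *Nog*, *Chrd* and *Grem1*. They were taken by gene symbol from the deposited table of raw read counts, where all 10 were found once among 53465 genes. RNA-seq was performed in mouse pancreatic ductal adenocarcinoma (PDAC) cells of B73 and B87, lines derived from primary tumors of the pancreas. All cells carried a tetracycline transactivator, switched on by Cre recombinase expressed from the pancreatic *Ptf1a* gene, and a single-copy short hairpin RNA against *Smad4* that is produced in the presence of doxycycline. Smad4-off cells were kept on doxycycline and Smad4-on cells were grown without it for 5 days, and both were then exposed for 24 h to 100 pM recombinant mouse TGFβ1 or to 2.5 µM SB505124, which inhibits the kinases of the TGFβ and activin type I receptors. The 4 groups held 1 library of each line, so n = 2 throughout. Doxycycline was present wherever the hairpin was produced, so their effects cannot be told apart, and no library analysed here was left untreated, so TGFβ1 was compared with an inhibited state.

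BMP ligands bind a complex of type I and type II serine/threonine kinase receptors, and the type I receptor then phosphorylates SMAD1, SMAD5 and SMAD9. These pair with SMAD4, which also partners the SMAD2 and SMAD3 proteins of TGFβ signaling, so that both branches of the family share *Smad4*. Gremlin 1, noggin and chordin are secreted proteins that bind BMPs and keep them from their receptors, and the *Id* genes are classic targets of the pathway. In the developing pancreas BMP signals help to set the fates of epithelial cells.

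Total counts ran from 18389235 to 23440550 per library, and 3 counts, the smallest level treated as detected, corresponded to between 0.125 and 0.162 CPM, the unit used below for counts adjusted for library size with TMM factors. These limits include counting error alone. *Smad4* was at 34.3 ± 0.87 CPM (SD, n = 2) in Smad4-off and 106 ± 11.6 CPM in Smad4-on cells under SB505124, and at 35.1 ± 0.60 and 116 ± 1.06 CPM under TGFβ1. All 7 epithelial markers exceeded 1 CPM in at least 1 library, although *Epcam* reached only 2.11 CPM, and their summed level was higher in B73 in each group. The summed level of 6 fibroblast markers lay between 3.995 and 8.87 CPM in the B73 libraries and between 43.9 and 646 CPM in those of B87. *Col1a1* made up most of it in B87, whereas *Lum* had no count in any library and *Dcn* at most 3. *Col1a2* went the other way, at 1.795 to 3.009 CPM in B73 and at most 0.255 CPM in B87. *Adgre1* and *Cd3e* had no count and *Ptprc* at most 3, while *Cd68*, a marker of macrophages, was detected at up to 6.28 CPM.

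Levels of different genes were compared as CPM per kilobase of exon. *Grem1*, an antagonist that binds BMP2 and BMP4, had the highest level of the 10 genes in every library, between 43.7 and 191 CPM per kb. *Bmpr1a*, a type I receptor, followed in 5 of the 8 libraries with 15.9 to 22.8 CPM per kb over all libraries, and *Acvr1*, another type I receptor, stood second in both Smad4-on TGFβ1 libraries. *Bmpr2*, the type II receptor, lay between 3.61 and 9.87 CPM per kb. *Bmp4* spanned the widest range among the ligands, from 0.658 to 34.8 CPM per kb, and in Smad4-on B87 cells under SB505124 it stood second of the 10 genes. *Bmp2* ran from 0.772 to 5.96 CPM per kb. *Nog*, *Chrd* and *Bambi*, a membrane protein that resembles a type I receptor but has no kinase domain, did not exceed 1.74, 1.22 and 0.313 CPM per kb. Their order among themselves changed from library to library. *Bmp7* had 1 count in each Smad4-off library of B73 and none in the other 6 libraries, and it was the only member that did not pass the filter on low counts. The 9 others were tested.

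**Figure D1:**
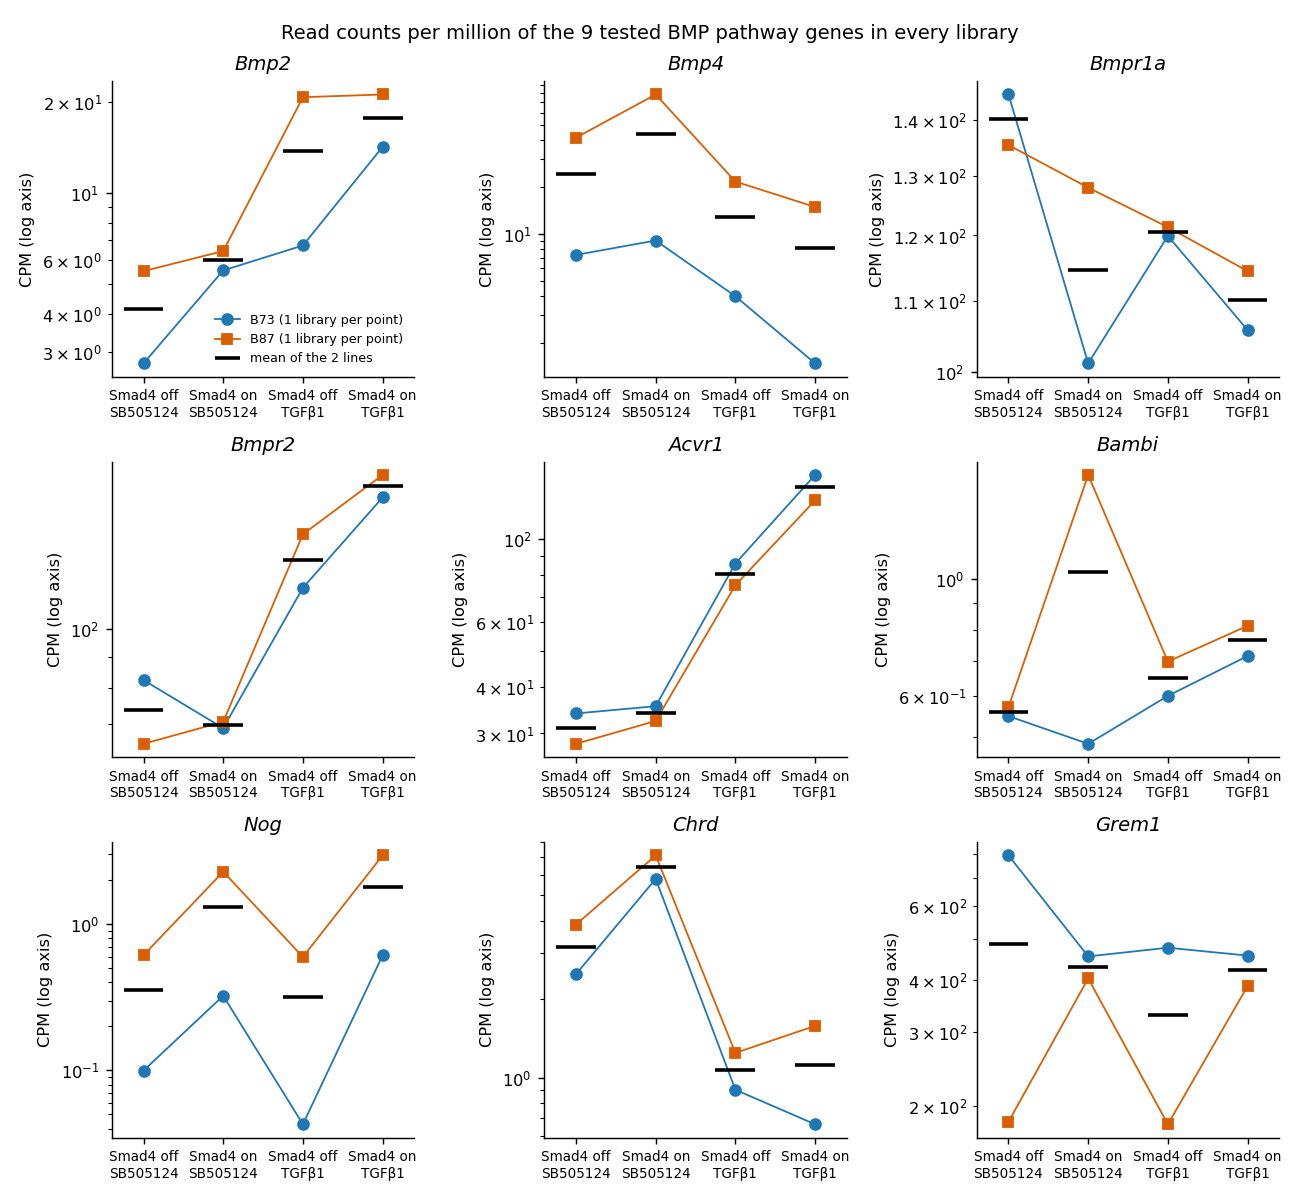
Levels in CPM (log axis, a different range in each panel) of the 9 tested members in the 4 groups, with circles for B73 and squares for B87 joined by lines for legibility, 1 library per point, and a bar at the mean of both. *Acvr1* and *Bmpr2* are higher in both lines under TGFβ1 than under SB505124, *Chrd* is lower, and *Bmp4* and *Nog* are higher in B87 than in B73 in every group.

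The stretch before the transcription start is shown for the members whose RefSeq promoter (GRCm38.p6) overlaps no annotated exon, because it is where SMAD-bound elements could be read beside the changes described here: *Bmp4* and *Chrd* were lower under TGFβ1, and *Grem1* was the most abundant member. Promoters were found for 6 of the 10 genes. *Bmp2*, *Bmp7*, *Nog* and *Bambi* had no entry. The 3 sequences are the 250 bases before the start, 5′ to 3′ on the strand of the gene, with matches to the searched elements in capitals:
Bmp4 (chr14:46390670-46390919, minus strand): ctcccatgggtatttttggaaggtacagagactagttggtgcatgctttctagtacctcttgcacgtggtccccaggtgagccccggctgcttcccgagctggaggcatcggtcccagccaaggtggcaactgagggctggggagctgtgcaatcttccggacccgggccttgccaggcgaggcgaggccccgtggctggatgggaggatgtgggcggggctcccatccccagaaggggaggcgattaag
Chrd (chr16:20732877-20733126, plus strand): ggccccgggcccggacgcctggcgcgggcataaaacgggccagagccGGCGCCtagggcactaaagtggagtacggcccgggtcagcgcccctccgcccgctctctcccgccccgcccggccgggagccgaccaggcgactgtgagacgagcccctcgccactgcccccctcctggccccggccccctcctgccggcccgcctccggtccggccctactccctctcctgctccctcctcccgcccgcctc
Grem1 (chr2:113758649-113758898, minus strand): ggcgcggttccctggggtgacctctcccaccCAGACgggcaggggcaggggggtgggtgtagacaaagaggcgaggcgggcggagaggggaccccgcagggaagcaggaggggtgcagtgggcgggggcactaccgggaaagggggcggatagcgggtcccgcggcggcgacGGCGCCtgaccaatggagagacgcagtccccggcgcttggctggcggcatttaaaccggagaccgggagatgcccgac

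The elements searched on both strands were the SMAD box CAGAC, the palindrome GTCTAGAC and the GC-rich site GGCGCC, none of which overlapped another in these windows. The *Bmp4* stretch held none of them. That of *Chrd* held GGCGCC with its first base at position -203 from the start, and that of *Grem1* held CAGAC at -219 and GGCGCC at -78. GGCGCC was also present in the windows of *Bmpr2* and *Bmpr1a*, of which 250 and 141 of the 250 bases lie in annotated exons. This made 4 of the 6 genes, beside 9.59% of 32851 promoters of this length, which were not matched for GC content. CAGAC was in 1 of the 6, beside 42.2%. The GC content of the printed stretches was 63.2% for *Bmp4*, 78.0% for *Chrd* and 72.0% for *Grem1*. These matches are descriptions of letters and were not tested for binding.

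To ask how BMP components responded to TGFβ, TGFβ1 was first compared with SB505124 in Smad4-on cells. Calls were made by edgeR in a model with the 4 groups and the line, and needed a Benjamini-Hochberg adjusted p under 0.05 together with a change of more than 2-fold. Of the 9 tested members, 5 were called, beside 13.9% of the 14301 genes tested. *Bmp2*, *Acvr1* and *Bmpr2* rose (5.62% of all genes were called higher), and *Bmp4* and *Chrd* fell (8.31% were called lower). The same 5 passed the adjusted p alone, as did 33.2% of all genes. In Smad4-off cells 3 of the 9 were called, *Bmp2* and *Acvr1* higher and *Chrd* lower, beside 5.93% of all genes (3.11% higher, 2.82% lower). *Bmpr2* and *Bmp4* then passed the adjusted p with changes under 2-fold, which made 5 members beside 13.2% of genes. The median log2 fold change of all tested genes was -0.02 in both comparisons. The fibroblast marker sum was also higher under TGFβ1 within each line and *Smad4* state. In Smad4-on cells it was at 8.87 against 3.995 CPM in B73 and at 646 against 152 CPM in B87. *Col1a1*, at 25.9 to 627 CPM, made up most of it in B87. Over the B87 libraries *Pdgfrb* lay between 12.8 and 27.1 CPM and *Pdgfra* between 3.515 and 6.4 CPM. *Lum* and *Dcn* were at or near 0. The part of this sum in the changes of the members was not tested. In bulk RNA, fewer cells of a type and less RNA per cell cannot be told apart.

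**Figure D2:**
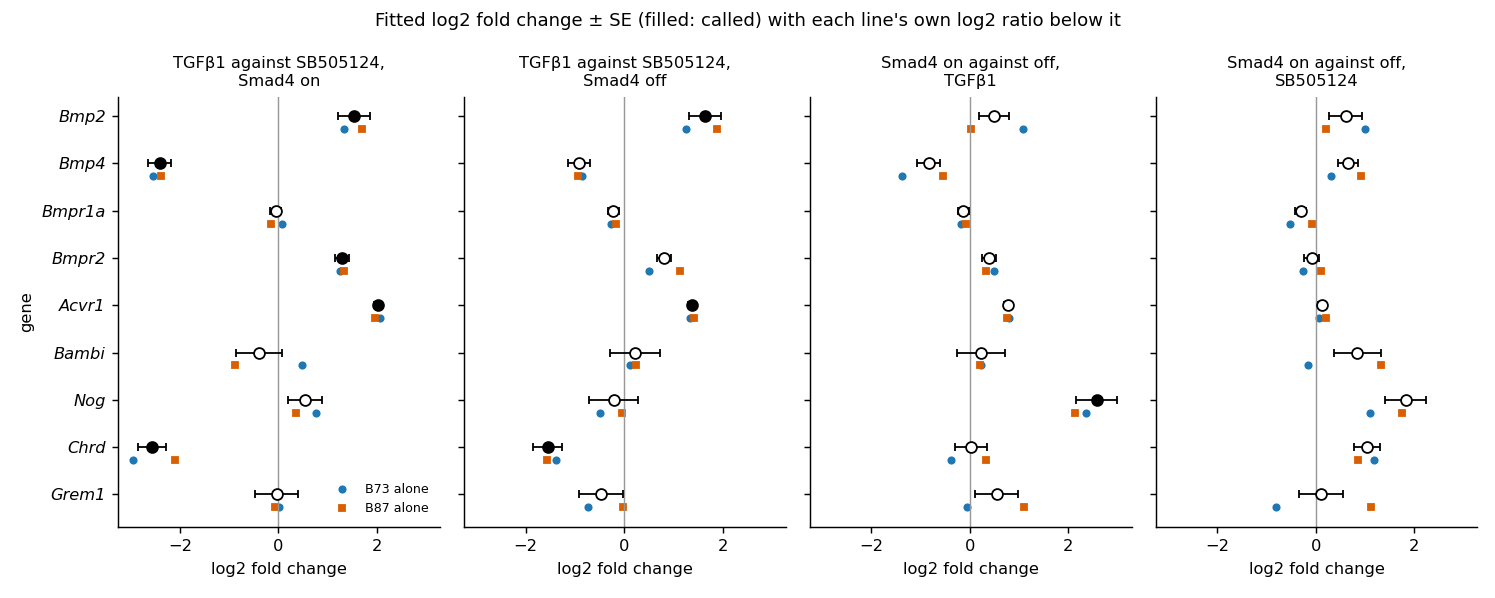
Log2 fold change ± SE from edgeR (circles, filled where called) of the 9 tested members in the 4 comparisons, with the log2 ratio of each line alone drawn below it (small circles for B73, squares for B87). Both lines lie on the same side of zero for every filled circle, and *Grem1* has B73 and B87 on opposite sides in both Smad4 comparisons.

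*Bmp4* and *Bmp2* moved in opposite directions. *Bmp4* (chr14:46383520-46390669), a ligand with roles in gastrulation and organ formation, was at 9.07 CPM in B73 and 78.3 CPM in B87 in Smad4-on cells under SB505124, and at 1.48 and 14.9 CPM under TGFβ1. In Smad4-off cells it was at 7.33 CPM in B73 and 41.4 CPM in B87 under SB505124, and at 3.98 and 21.7 CPM under TGFβ1. Within each line the TGFβ1 library was the lower of the pair, but the groups overlapped because all B87 libraries lay above all B73 libraries. *Bmp4* fell by 2.42 ± 0.23 (SE) on the log2 scale in Smad4-on cells, 5.34-fold (edgeR adjusted p 0.0005). In Smad4-off cells the log2 fold change was -0.92 ± 0.22 (edgeR adjusted p 0.0377). With 1 library left out this estimate ran from -1.15 to -0.63, and over the other settings of edgeR and DESeq2 its adjusted p ran from 0.00109 to 0.884. The Smad4-on call held without any single library but was absent when the line was left out of the model (edgeR adjusted p 0.355, DESeq2 adjusted p 0.327).

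*Bmp2* (chr2:133552159-133562885), a ligand close to BMP4 in sequence and receptor use, rose. In Smad4-on cells it was at 5.56 CPM in B73 and 6.44 CPM in B87 under SB505124, and at 14.2 and 21.2 CPM under TGFβ1. In Smad4-off cells the levels were 2.74 and 5.53 CPM under SB505124 and 6.72 and 20.8 CPM under TGFβ1. Both TGFβ1 groups lay above the matching SB505124 groups without overlap. The log2 fold change was 1.54 ± 0.32 in Smad4-on cells, 2.90-fold (edgeR adjusted p 0.0112), and 1.65 ± 0.33 in Smad4-off cells, 3.14-fold (adjusted p 0.0212). In Smad4-on cells the call was lost without the B73 library under TGFβ1 (adjusted p 0.0629) or the B87 library under SB505124 (0.0814), and in Smad4-off cells without either SB505124 library (0.0826 for B73 and 0.104 for B87) or the B87 library under TGFβ1 (0.151). Without the line in the model neither was called by edgeR (adjusted p 0.133 and 0.221), while DESeq2 called both (adjusted p 0.0427 and 0.0459).

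The balance of the measured ligand transcripts differed between the treatments. Per kilobase of exon, *Bmp4* exceeded *Bmp2* 4.23-fold in Smad4-off and 2.58-fold in Smad4-on cells of B73 under SB505124, and 11.8-fold and 19.2-fold in B87. Under TGFβ1 the ratio of *Bmp4* to *Bmp2* was 0.937 and 0.164 in B73 and 1.65 and 1.11 in B87. The ratio was lower under TGFβ1 in 4 of 4 pairs of libraries of the same line and *Smad4* state, by a mean of -3.28 on the log2 scale (range -4.11 to -2.17). The exact two-sided sign-flip permutation test gave p = 0.125, the smallest value that 4 pairs allow. *Bmp4* was lower and *Bmp2* higher in these same pairs, as given above, so this result follows from those levels and adds no support. The 4 pairs came from 2 lines and were not independent. Between Smad4-on and Smad4-off cells the ratio was lower in 3 of 4 pairs, with a mean log2 difference of -0.77 (exact permutation p = 0.375). The summed level of both ligands lay between 3.66 and 5.60 CPM per kb in B73 and between 12.6 and 36.6 in B87.

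**Figure D3:**
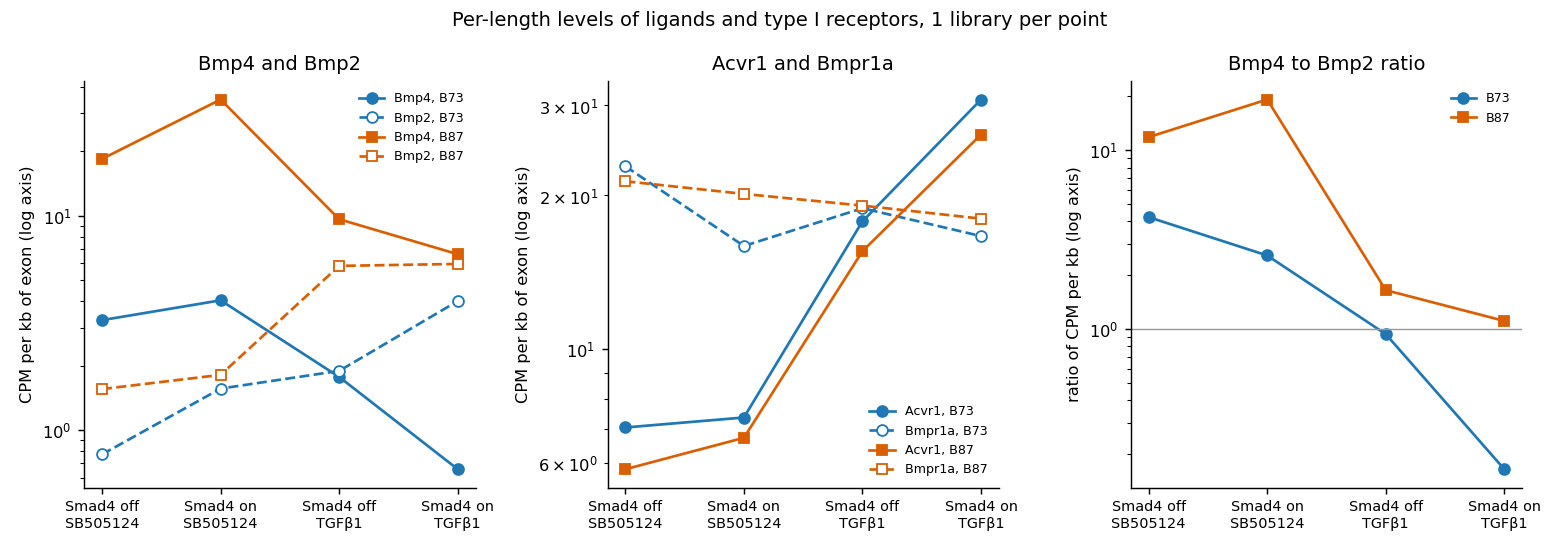
Levels in CPM per kilobase of exon (log axes) of *Bmp4* (filled) and *Bmp2* (open) at left and of *Acvr1* (filled) and *Bmpr1a* (open) in the middle, and the ratio of *Bmp4* to *Bmp2* at right (log axis, grey line at equal levels), with 1 library per point. The ratio is at least 2.58 in all 4 SB505124 libraries and at most 1.65 under TGFβ1, and with the deposited gene lengths *Acvr1* exceeds *Bmpr1a* in the Smad4-on TGFβ1 libraries of both lines and in none of the other 6.

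Among the 3 receptors *Bmpr1a*, *Acvr1* and *Bmpr2*, *Acvr1* (chr2:58388644-58567157), which encodes a type I receptor that binds several BMPs and activins, differed the most between treatments. In Smad4-on cells it was at 35.5 CPM in B73 and 32.4 CPM in B87 under SB505124, and at 149 and 127 CPM under TGFβ1. In Smad4-off cells it was at 33.96 and 28.1 CPM under SB505124, and at 86.0 and 75.2 CPM under TGFβ1. The 4 TGFβ1 libraries were all above the 4 SB505124 libraries, and under TGFβ1 both Smad4-on libraries were above both Smad4-off libraries. *Acvr1* rose by 2.02 ± 0.08 on the log2 scale in Smad4-on cells, 4.05-fold (edgeR adjusted p 3.86e-05), and by 1.38 ± 0.08 in Smad4-off cells, 2.60-fold (adjusted p 0.000467). Both calls were present without any single library and without the line in the model (edgeR adjusted p 0.00275 and 0.0208).

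*Bmpr2* (chr1:59763400-59879014), the type II receptor that binds most BMPs and is known for its mutations in pulmonary arterial hypertension, was at 68.9 CPM in B73 and 70.6 CPM in B87 in Smad4-on cells under SB505124 and at 163 and 178 CPM under TGFβ1. In Smad4-off cells it was at 82.5 and 65.0 CPM under SB505124 and at 116 and 142 CPM under TGFβ1. Again every TGFβ1 library exceeded every SB505124 library. The log2 fold change was 1.29 ± 0.14 in Smad4-on cells, 2.44-fold (edgeR adjusted p 0.000961), and 0.81 ± 0.14 in Smad4-off cells, 1.75-fold (adjusted p 0.0144). The first call was present without any single library and without the line (edgeR adjusted p 0.00725). Without the Smad4-off B73 library under SB505124, the estimate in Smad4-off cells passed 2-fold (1.07), and the lowest estimate with 1 library left out was 0.577. Over the other settings of edgeR and DESeq2 its adjusted p ran from 1.55e-05 to 0.0676.

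*Bmpr1a*, the type I receptor preferred by BMP2 and BMP4, was at 145 CPM in B73 and 135 CPM in B87 in Smad4-off cells under SB505124, its highest levels, and between 101 and 128 CPM in the other 6 libraries. Its log2 fold change with TGFβ1 was -0.05 ± 0.11 in Smad4-on cells (edgeR adjusted p 0.745) and -0.22 ± 0.11 in Smad4-off cells (adjusted p 0.251). Per kilobase, the ratio of *Acvr1* to *Bmpr1a* was between 0.273 and 0.462 in the SB505124 libraries. Under TGFβ1 it was 0.943 in B73 and 0.815 in B87 in Smad4-off cells, and 1.85 and 1.46 in Smad4-on cells. With the length of the longest transcript in place of all exons, the Smad4-off ratios were 1.30 and 1.12, so the order of these receptors in Smad4-off cells depended on the length used. *Bambi* had between 9 and 38 counts per library. Its highest level, 1.58 CPM, was in Smad4-on B87 cells under SB505124 and the other 7 libraries lay between 0.486 and 0.815 CPM, so that changes of this gene were poorly measured at this depth.

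The antagonists differed from each other in their response. *Chrd* (chr16:20733127-20742384), which encodes chordin, was at 5.78 CPM in B73 and 7.11 CPM in B87 in Smad4-on cells under SB505124, and at 0.663 and 1.58 CPM under TGFβ1. In Smad4-off cells it was at 2.49 and 3.86 CPM under SB505124, and at 0.899 and 1.24 CPM under TGFβ1. All TGFβ1 libraries were lower than all SB505124 libraries. *Chrd* fell by 2.57 ± 0.29 on the log2 scale in Smad4-on cells, 5.94-fold (edgeR adjusted p 0.000994), and by 1.55 ± 0.29 in Smad4-off cells, 2.93-fold (adjusted p 0.0181). The first call was present without any single library and without the line in the model (edgeR adjusted p 0.0245). The second was lost without each of the 4 libraries compared (adjusted p 0.0625 to 0.172) and without the line (0.175 in edgeR, 0.0832 in DESeq2). Of the exonic bases of *Chrd*, 239 overlap *Thpo* on the opposite strand, and how strand was treated in counting was not given in the sources used here.

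*Grem1* (chr2:113746164-113758646) was not called between treatments. In Smad4-on cells it was at 455 CPM in B73 and 403 CPM in B87 under SB505124 and at 457 and 386 CPM under TGFβ1. In Smad4-off cells it was at 792 and 184 CPM under SB505124 and at 477 and 181 CPM under TGFβ1. The lines were close to each other in Smad4-on cells and far apart in Smad4-off cells. The log2 fold change with TGFβ1 was -0.04 ± 0.44 in Smad4-on cells (edgeR adjusted p 0.959) and -0.47 ± 0.44 in Smad4-off cells (adjusted p 0.537). *Grem1* made up between 97.4% and 99.8% of the summed per-length level of *Grem1*, *Nog* and *Chrd* in each library, so that the fall of *Chrd* was a small part of the antagonist transcripts measured. *Nog* (chr11:89300638-89302332), which encodes noggin, did not pass the test between treatments (log2 fold change 0.54 ± 0.34 in Smad4-on cells, edgeR adjusted p 0.275; -0.21 ± 0.49 in Smad4-off cells, adjusted p 0.861).

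The next question was which members depended on *Smad4*. Under TGFβ1, 1 of the 9 tested members was called between Smad4-on and Smad4-off cells, *Nog*, beside 3.12% of all genes (1.31% higher, 1.80% lower). *Acvr1* also passed the adjusted p at a change under 2-fold, which made 2 members beside 6.80% of genes. *Nog* had 12 counts in B73 and 58 in B87 in Smad4-on cells (0.612 and 2.95 CPM), and 1 and 12 counts in Smad4-off cells (0.0428 and 0.597 CPM). Each line was higher with *Smad4* on, and the Smad4-on library of B73 and the Smad4-off library of B87 had 12 counts each, so the groups met. *Nog* rose by 2.58 ± 0.41 on the log2 scale, 5.97-fold (edgeR adjusted p 0.0162). This rested on 160 counts of *Nog* in all 8 libraries. The call was lost without each of the 4 TGFβ1 libraries (adjusted p 0.0641 to 0.122) and without the line in the model (0.549 in edgeR, 0.52 in DESeq2). *Acvr1* was higher with *Smad4* on under TGFβ1 by 0.77 ± 0.08, 1.71-fold (edgeR adjusted p 0.0038), by 0.79 in B73 and 0.76 in B87, and without the line in the model it did not pass in edgeR (adjusted p 0.116) but passed in DESeq2 (0.000298). For *Bmp4* the estimate was -0.84 ± 0.24 (edgeR adjusted p 0.0849), with both lines below zero (-1.37 and -0.54). It passed the adjusted p under 2-fold in DESeq2 with the line (0.0241) and in edgeR with no filter on low counts (0.0068). Without the line in the model it did not pass (adjusted p 0.912 in edgeR and 0.951 in DESeq2).

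Under SB505124 none of the 9 members was called between the *Smad4* states in edgeR or in DESeq2. In edgeR 1.09% of all genes were called (0.636% higher, 0.455% lower). An unadjusted edgeR p under 0.05 was reached by 4 members, beside 1809 of the 14301 genes. *Nog* had 6 and 55 counts in Smad4-on cells of B73 and B87 (0.324 and 2.29 CPM) and 2 and 14 counts in Smad4-off cells (0.0997 and 0.615 CPM). Its log2 difference was 1.83 ± 0.41 (edgeR adjusted p 0.107). *Chrd*, with the levels given above, differed by 1.04 ± 0.26 (adjusted p 0.142), 1.18 in B73 and 0.86 in B87, and both Smad4-on libraries exceeded both Smad4-off libraries. For *Bmp4* it was 0.66 ± 0.21 (adjusted p 0.246) and for *Bmpr1a* -0.30 ± 0.11 (adjusted p 0.33). Without a filter on low counts *Nog* and *Chrd* were called here (edgeR adjusted p 0.0242 and 0.0248). The *Smad4* comparisons under both treatments used different libraries.

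Whether the response to TGFβ1 differed between Smad4-on and Smad4-off cells was tested with the interaction term. None of the 9 members was called, beside 0.189% of genes. An unadjusted edgeR p under 0.05 was reached by 4 members, *Acvr1*, *Bmp4*, *Bmpr2* and *Chrd*, beside 1493 of the 14301 genes. The estimate was -1.50 ± 0.31 on the log2 scale for *Bmp4* (edgeR adjusted p 0.177) and 0.64 ± 0.11 for *Acvr1* (adjusted p 0.123), that is, a larger measured response in Smad4-on cells for both. DESeq2 with the line in the model called *Bmp4* (adjusted p 0.00752) and gave 0.00471 for *Acvr1*, under 2-fold. For *Chrd* the estimate was -1.02 ± 0.42 (edgeR adjusted p 0.459) and for *Bmpr2* 0.48 ± 0.20 (adjusted p 0.477).

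The lines themselves differed in *Bmp4* and *Nog*. Both were called higher in B87 than in B73, 2 of 9 members beside 8.37% of genes, and 4 passed the adjusted p alone beside 18.6%. *Bmp4* was 6.99-fold higher (log2 2.80 ± 0.16, edgeR adjusted p 0.000109) and *Nog* 6.14-fold higher (2.62 ± 0.30, adjusted p 0.00159), in 4 of 4 pairs of libraries of the same condition for each. *Bmp2* was higher by 0.86 ± 0.23 (adjusted p 0.0414) and *Acvr1* differed by -0.21 ± 0.06 (adjusted p 0.0463). Both lay close to the threshold. With 1 library left out the estimates ran from 0.585 to 1.077 for *Bmp2* and from -0.22 to -0.182 for *Acvr1*. Over the other settings of edgeR and DESeq2 the adjusted p ran from 0.000481 to 0.0487 for *Bmp2*. For *Acvr1* it ran from 0.0419 to 0.112, so that *Acvr1* did not pass in every setting. The fibroblast marker sum given above was also higher in all B87 libraries, although *Col1a2* of that list was lower there, and the epithelial marker sum was lower. The part of these markers in the differences was not tested. With 1 culture of each line per condition, a difference between lines and one between cultures cannot be told apart.

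In a model with a separate *Smad4* effect in each line no member was called, beside 0.392% of genes. An unadjusted edgeR p under 0.05 was reached by 3 members (*Bmp2*, *Bmp4* and *Grem1*), beside 1408 of the 14301 genes. *Grem1* came closest. Between Smad4-on and Smad4-off cells its log2 ratio was -0.80 under SB505124 and -0.06 under TGFβ1 in B73, and 1.13 and 1.09 in B87. The difference between lines was 1.55 ± 0.22 (edgeR adjusted p 0.0521). With a separate TGFβ1 effect in each line no gene was called at all in edgeR, 0.00% of those tested, although 1198 genes had an unadjusted p under 0.05. None of these was a member.

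Other genes of the pathway were followed in 5 lists. Of 17 secreted and membrane-bound modulators of BMPs 10 were tested. With TGFβ1 6 of these were called higher in Smad4-on cells, beside 5.62% of all genes, and 6 in Smad4-off cells, beside 3.11%. The other 4 were not called in either state, and the medians over the 10 were 1.31 and 1.13 on the log2 scale. The genes that rose were *Bmp1* and *Tll1*, proteases that cleave chordin, *Fst* and *Fstl3*, which bind activins and some BMPs, *Fstl1*, and *Crim1*, a membrane protein that binds BMPs. In Smad4-on cells *Bmp1* rose from 71.5 CPM in B73 and 126.8 CPM in B87 to 257 and 364 CPM (log2 1.67 ± 0.14, edgeR adjusted p 0.000338). *Tll1* was called in both *Smad4* comparisons as well. Under TGFβ1 it was at 0.557 and 4.73 CPM in Smad4-off cells of B73 and B87 and at 7.85 and 49.4 CPM in Smad4-on cells (log2 3.56 ± 0.29, edgeR adjusted p 0.00162). Both Smad4-on libraries exceeded both Smad4-off libraries. *Fstl3* rose by 3.56 ± 0.31 with TGFβ1 in Smad4-on cells (edgeR adjusted p 0.000335). It was also called between *Smad4* states under TGFβ1 (1.63 ± 0.27, adjusted p 0.0178).

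Of the 8 tested target genes of BMP signaling, 5 fell and 1 rose with TGFβ1 in Smad4-on cells, beside 8.31% and 5.62% of all genes, with a median of -2.08. In Smad4-off cells 4 fell, 1 rose and 3 were not called, beside 2.82% lower and 3.11% higher among all genes, with a median of -0.97. For *Atoh8*, a helix-loop-helix factor, the log2 fold change in Smad4-on cells was -4.42 ± 0.51 (edgeR adjusted p 0.00103). It was -2.48 ± 0.28 (adjusted p 0.000973) for *Id2* and -2.35 ± 0.11 (adjusted p 5.48e-05) for *Id3*, inhibitors of helix-loop-helix factors. The gene that rose was *Smad7*, an inhibitory SMAD that TGFβ also induces, by 2.48 ± 0.12 (adjusted p 5.48e-05), and it was also called higher with *Smad4* on under TGFβ1 (1.14 ± 0.11, adjusted p 0.00317). *Id3* was at 143 CPM in B73 and 263 CPM in B87 in Smad4-on cells under SB505124 and at 30.0 and 48.4 CPM under TGFβ1, without overlap. Between *Smad4* states under SB505124, 3 of the 8 were called higher with *Smad4* on and none lower, beside 0.636% of all genes called higher. They were *Id3* (log2 difference 1.39 ± 0.10, edgeR adjusted p 0.00341), *Id1* (1.30 ± 0.18, adjusted p 0.0213) and *Smad6*, an inhibitory SMAD (1.17 ± 0.13, adjusted p 0.0122).

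Of the other ligands, 2 of 5 tested fell with TGFβ1 in Smad4-on cells, beside 8.31% of all genes. They were *Bmp6* (log2 fold change -2.04 ± 0.48, edgeR adjusted p 0.0183) and *Gdf6* (-4.94 ± 1.31, adjusted p 0.0272). *Gdf6* was measured almost wholly in B73, since B87 had at most 0.166 CPM in any library. In Smad4-off cells none of the 5 was called by edgeR. Of 7 other receptors and co-receptors 1 rose in Smad4-on cells, beside 5.62% of all genes. It was *Acvrl1*, a type I receptor of endothelial cells, which rose from 0.432 and 0.790 CPM in B73 and B87 to 2.55 and 3.77 CPM (log2 2.33 ± 0.43, edgeR adjusted p 0.00688). The sum of 3 endothelial markers in the same groups was 0.648 to 2.66 CPM and 3.32 to 4.64 CPM, chiefly *Kdr* and *Cdh5*, while *Pecam1* had at most 5 counts in any library. In Smad4-off cells the sum was 2.14 to 5.14 CPM under SB505124 and 7.24 to 26.0 CPM under TGFβ1. *Acvrl1* was at 0.499 and 0.2195 CPM in B73 and B87 of the former group and at 1.33 and 1.24 CPM in the latter. The part of these markers in the change of *Acvrl1* was not tested. Of 5 intracellular components, 1 fell with TGFβ1 in Smad4-on cells, beside the same 8.31%. It was *Smad9*, a SMAD of the BMP branch (log2 fold change -3.94 ± 0.51, edgeR adjusted p 0.00172). It was at 15.2 CPM in B73 and 8.44 CPM in B87 in Smad4-on cells under SB505124 and at most 1.85 CPM in the other 6 libraries, and under SB505124 it was called higher with *Smad4* on (3.27 ± 0.47, adjusted p 0.0245).

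Between the lines, beside the 8.37% of genes called, 2 of the 5 other ligands, 3 of the 10 modulators and 3 of the 8 target genes were called, and none of the other receptors or intracellular components. *Gdf6* and *Bmp8b* differed by -5.07 ± 0.78 (edgeR adjusted p 0.00536) and -2.34 ± 0.42 (0.0103) on the log2 scale, B87 against B73. *Bmp8b* did not exceed 0.702 CPM in B73 and lay between 0.0498 and 0.176 CPM in B87, around the smallest level treated as detected. The size of its difference was therefore poorly measured. *Tll1*, *Fst* and *Fstl1* were higher in B87, by 2.97, 2.38 and 1.42 in that order. Among the target genes *Hey1* was higher by 2.55 ± 0.26 and *Atoh8* by 1.83 ± 0.35, and *Msx1* differed by -1.81 ± 0.28 (edgeR adjusted p 0.00094, 0.0124 and 0.006). *Hey1* lay between 0.204 and 0.324 CPM in B73 and *Msx1* between 0.255 and 0.499 CPM in B87. Their highest levels in any library were 1.995 and 1.997 CPM, so both differences are limited by depth.

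**Figure D4:**
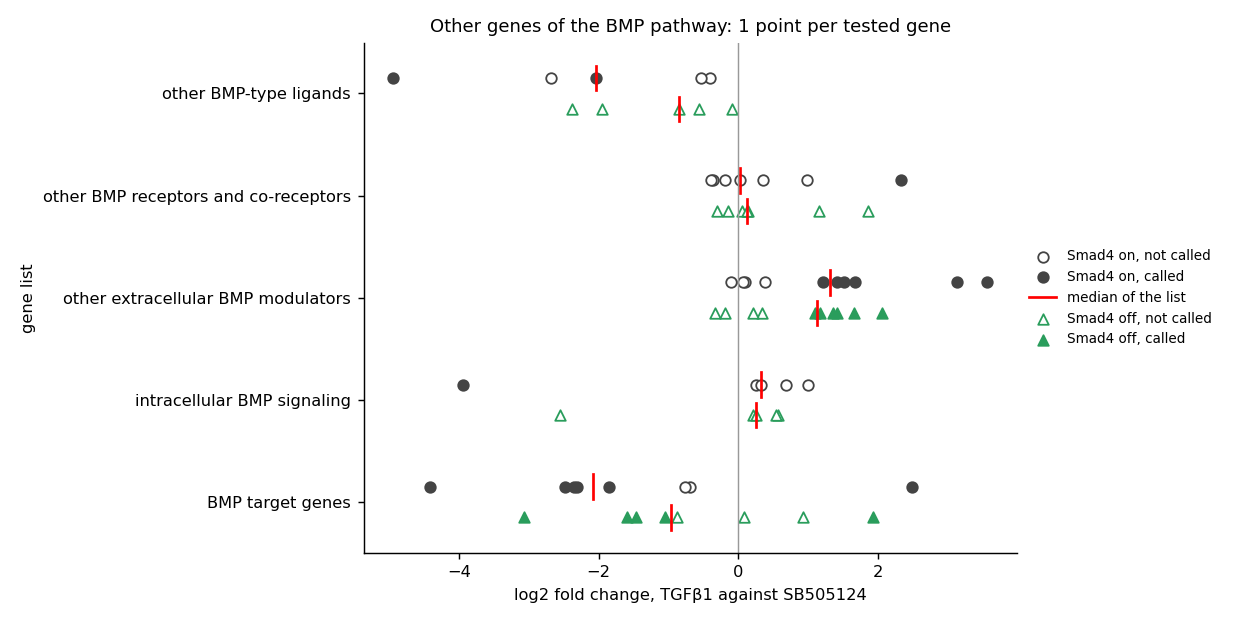
Log2 fold change between TGFβ1 and SB505124 of the tested genes in the 5 lists (circles for Smad4-on, triangles for Smad4-off cells, filled where called), with a red bar at the median of each list. The modulators have 6 filled points on the right of zero in either state, and the target genes have 5 circles and 4 triangles filled on the left.

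Across the 8 libraries the members that rose with TGFβ1 had similar profiles. The log2 CPM of *Bmpr2* and *Acvr1* had Pearson's r = 0.966, *Bmp2* and *Bmpr2* had 0.823, and *Chrd* had -0.863 with *Acvr1* and -0.853 with *Bmpr2* (n = 8). These 8 points share lines and treatments, so the values are descriptions. The genes were grouped by their calls in the same libraries, so the signs follow in part from that choice and add no support. Among all other tested genes, those most like *Acvr1* were *Zmiz1* (r = 0.996) and *Map3k20* (0.995), and those most like *Bmpr2* were *Sfxn3* (0.994) and *Runx1* (0.990). For *Bmp4* they were *Col6a2* (0.996) and *Galnt4* (0.990), for *Bmp2* *Igsf9* (0.984) and *Kif26b* (0.978), for *Chrd* *Dlk2* (0.990) and *Ipp* (0.987), and for *Nog* *Flnc* (0.984) and *Calu* (0.970).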

How the data were processed

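Line, doxycycline state and treatment were read from the titles of 8 libraries of PDAC cells. The authors made poly(A) libraries with a stranded kit, read 75 bases from one end, trimmed with Trimmomatic 0.36, aligned to GRCm38 with STAR 2.5.3a and ran featureCounts 1.6.3. The deposited values are raw counts per gene. How strand and multi-mapping reads were counted was not given in the sources used here, so reads from the 89 bases of *Bmp4* and 290 bases of *Bmpr1a* that overlap genes on the opposite strand may be shared.

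Counts were tested with edgeR 4.0.16 (TMM, filterByExpr, quasi-likelihood F-test) in a model of 4 groups and line with 3 residual degrees of freedom. The SE is the estimate over the root of its F statistic, and values for a single line had a prior count of 2. The study's methods name DESeq2 and no covariate. The line was kept because both went through all conditions, and the lines' deviations from the group means correlated between groups (r = 0.642 to 0.774 over 6 pairs of groups). Groups hold 2 lines of unstated relation, so p-values measure the spread between these cultures. Scripts were tested on simulated data.

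Every member is named. From each other list, called genes were named, at most the 3 with the largest change per comparison (*Crim1* was added after its values were seen), and for each member called between groups the 2 genes most correlated with it. Members and lists were chosen with earlier results of these data known. The alternatives were DESeq2 1.42.0 (with the line, and without), edgeR lacking the line, size factors of DESeq2, no filter, a minimum of 10 counts per library, no fold rule, fits of the 4 libraries compared, omission of each library or line, and transcript length. Separate effects per line were refitted with other settings chosen after seeing the data. Promoters came from RefSeq and gene lengths from the deposited table. Part of the genotype of the cells is not reported here.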

Additional observations from a re-analysis of the deposited data

Results flagged for a closer look

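*Grem1* was noted because with *Smad4* on both B73 pairs of libraries were lower and both B87 pairs higher than with *Smad4* off. In B73 the log2 ratio was -0.799 under SB505124 but only -0.062 under TGFβ1, so the lower level there rested chiefly on the SB505124 pair. The log2 difference between the lines was 1.55 ± 0.22, which did not pass the edgeR test of the difference itself (adjusted p 0.0521).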

How the results depend on the processing

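With no replicate block, edgeR called 3 members with TGFβ1 in Smad4-on cells, 1 in Smad4-off cells and 0 between the *Smad4* states under TGFβ1. DESeq2 called 4, 2 and 0. Shares of all genes called are not given for the changed fits of this paragraph, so their counts cannot be set against a background. Without the fold rule the counts were 5 with TGFβ1 in Smad4-off cells, 2 between *Smad4* states under TGFβ1 and 4 between lines. Beside these, 13.2%, 6.80% and 18.6% of all genes passed. A minimum of 10 counts in every library removed *Nog*, which left 0 members between *Smad4* states under TGFβ1 and 1 between lines. With no filter 2 members were called between *Smad4* states under SB505124 and 1 in the interaction, and DESeq2 with the line called 1 in the interaction. The *Smad4* effect of *Grem1* differed between lines with DESeq2 size factors (1 member called, edgeR adjusted p 0.0455) and with no filter (1, adjusted p 1.57e-24), and not with a minimum of 10 counts (0.0689). The cause was not tested. Leaving out 1 library gave 0 to 1 members between *Smad4* states under TGFβ1 and 1 to 3 with TGFβ1 in Smad4-off cells.

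Estimates that changed sign were not called in any fit that gave a test. For *Grem1* between *Smad4* states under SB505124, the log2 difference was -0.19 in edgeR and -0.18 in DESeq2 with no replicate block, and -0.80 to 1.13 with a line left out. Leaving out 1 library gave -0.61 to 0.59 and -1.06 to 0.44 for *Grem1* with TGFβ1 in Smad4-on and Smad4-off cells, -0.96 to 0.56 and -0.12 to 0.54 for *Bambi*, and -0.20 to 0.11 for *Bmpr1a* in Smad4-on cells. Between *Smad4* states it gave -0.017 to 0.50 for *Bambi* and -0.44 to 0.35 for *Chrd* under TGFβ1, and -0.31 to 0.18 for *Bmpr2* and -0.15 (a line left out) to 1.41 for *Bambi* under SB505124. Values for a gene under about 20 counts per library, as in *Bambi* and part of *Nog*, are limited by depth.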
